A study of Mus musculus with 10 samples.

Results

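The genes described here encode the proteins of the mitochondrial respiratory chain that are made from nuclear DNA. They were chosen by name from the deposited count table: every symbol that starts with Nduf (without Ndufa4l2), Uqcr or Atp5, Sdha to Sdhd, and 12 named Cox genes, without pseudogene names ending in -ps. This gave 90 of the 55421 gene entries in the table. Of these, 79 entries (78 symbols, since Atp5o has 2 IDs) are subunits of complexes I to V, 8 are complex I assembly factors (Ndufaf1 to Ndufaf8), and 3 (Ndufa11b, Ndufb4c and Ndufs6b) are annotated copies of subunit genes.

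The libraries came from surgically made ulcers of db/db mice, which carry a mutated leptin receptor and become obese and diabetic. One group of ulcers was given saline (5 libraries) and the other saline+Fu Huang ointment, a topical preparation (5 libraries), and ulcer tissue was taken after 7 days of administration. All 10 libraries therefore share the db/db genotype, the surgery and the saline. No age is given in the sources used here, nor how the libraries relate to animals. The comparison asks which transcripts differed between ointment and saline ulcers.

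The respiratory chain takes electrons from NADH (complex I) and succinate (complex II), passes them through complex III and cytochrome c to complex IV, where oxygen is reduced, and uses the resulting proton gradient to drive ATP synthase, complex V. In skin wounds it works beside glycolysis, on which migrating keratinocytes and activated immune cells draw heavily. Subunits encoded in the mitochondrial genome are joined to nuclear subunits by dedicated assembly factors. Several subunits of complex IV exist as isoforms typical of striated muscle and isoforms found in most tissues.

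Library totals ran from 47.8 to 62.9 M counts (M, mega). Levels below are CPM, counts scaled to library size (counts per M) after TMM scaling, a correction for differences in library composition, and errors are SD over 5 libraries. The tissue labels were checked against marker genes. Keratinocyte markers (13 genes) summed to 20194 to 38155 CPM per library and fibroblast markers (8 genes) to 19173 to 62612 CPM, so both main cell types of wounded skin were present in every library. Among 11 lists of markers, edgeR called 3 of 11 macrophage and monocyte genes higher, 7 of 12 hair follicle genes lower, and 1 of 9 adipocyte genes in each direction. It called 0 of the muscle, brown adipocyte, neutrophil, keratinocyte, fibroblast, endothelium, T and B cell, and sebaceous gland genes, of which 1, 0, 9, 4, 3, 3, 0 and 0 had an unadjusted p below 0.05. DESeq2 called more: 6 macrophage and monocyte, 7 neutrophil and 5 adipocyte genes higher, and 11 hair follicle, 3 keratinocyte, 2 endothelium and 2 adipocyte genes lower. Of all genes tested, edgeR called 1.67% and DESeq2 9.09%, and 17.1% had an unadjusted p below 0.05 by edgeR. Summed macrophage markers were 3376 to 5867 CPM in saline and 7300 to 9919 CPM in ointment ulcers, without overlap. Whether these differences in markers bear on the values of the respiratory chain genes was not tested. In bulk tissue, fewer cells of a type and less RNA per cell cannot be told apart.

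Most respiratory chain genes had nearly the same level in ointment and saline ulcers. Of the 90 entries, 86 had enough counts to be tested. The exceptions were Ndufa11b, Ndufb4c and the second Atp5o ID, with 0 counts in every library, and Ndufs6b, whose highest level was 0.0852 CPM. edgeR's quasi-likelihood test called 0 of the 86 at an adjusted p below 0.05, beside 1.67% of all 18509 genes tested (0.692% higher, 0.983% lower). At an unadjusted p below 0.05 there were 5 of 86 (5.81%, against 17.1% of all genes): Ndufs5, Ndufa7, Sdhb, Atp5d and Atp5b. DESeq2 called 3 of 86 (Ndufs5, Ndufa7 and Sdhb), all 3 higher, beside 9.09% of all genes in either direction and 4.72% higher. The log2 fold changes, ointment against saline, were above 0 for 42 genes and below 0 for 44, with a median of -0.00, the same as over all genes tested.

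The intervals show how much change these data leave room for. The 95% interval of the fold change lay within 1.5-fold in either direction for 68 of 86 genes (79.1%), against 25.5% of all genes tested. The share was 90.5% of cytosolic ribosomal protein genes, 84.2% of citric acid cycle and pyruvate dehydrogenase genes and 71.8% of mitochondrial ribosomal protein genes. The median size of the log2 fold change was 0.10 for the 86 genes and 0.28 for all genes. Their median SD within groups was 0.17 on the log2(CPM + 0.5) scale, against 0.36 for all genes. The sets also differed in level: mean CPM per kb of transcript had a median of 102 for the 86 genes and 5.11 for all genes. Interval width and spread depend on level, and no share among genes of like level was computed. Groups did not overlap for 2 of 86 genes (2.33%, Ndufa7 and Sdhb), against 6.54% of all genes. Summed over all entries, the respiratory chain genes made up 10646 ± 723 CPM in saline and 10453 ± 362 CPM in ointment ulcers (n = 5 each). This was 0.959% to 1.13% of each library after TMM scaling.

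**Figure D1:**
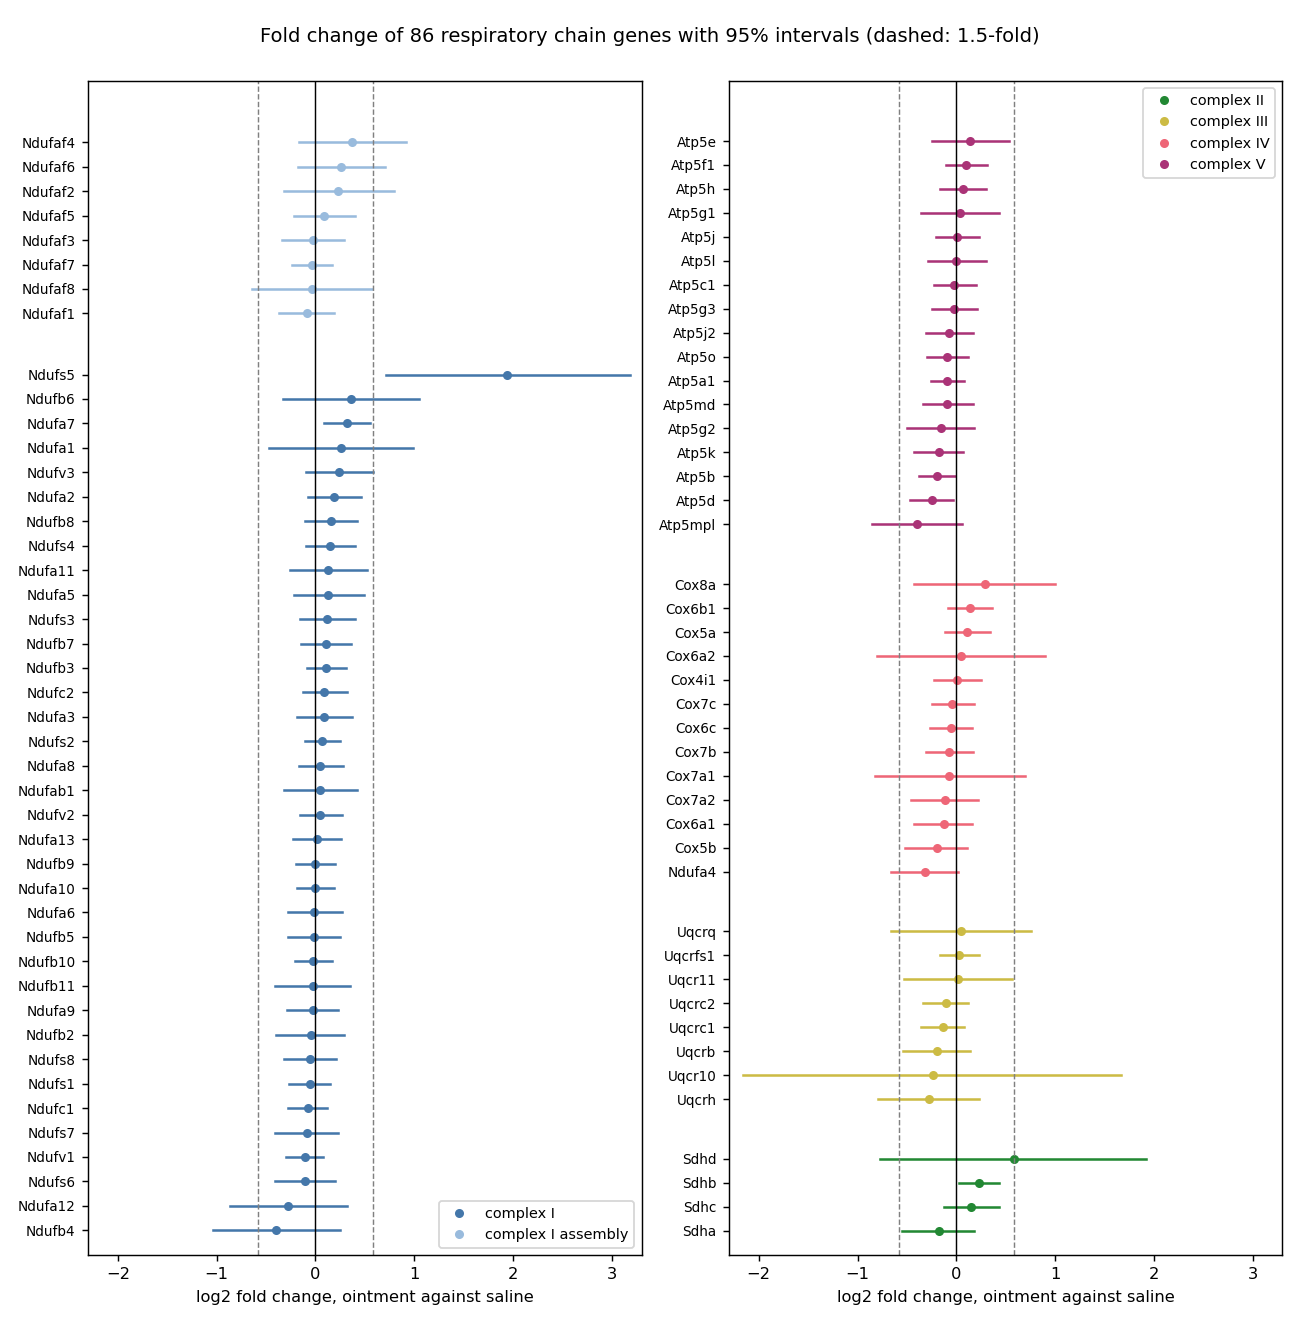
Log2 fold change (ointment against saline, x axis) of the 86 tested genes with 95% intervals from edgeR, grouped by complex. Dashed lines mark a 1.5-fold difference. The intervals of 68 genes stay between them, and Ndufs5, Sdhd and Uqcr10 have the widest intervals.

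Levels per length differed between the complexes. Mean CPM per kb of transcript had a median of 86.4 over the 36 complex I subunits, 65.2 over the 4 of complex II, 134 over the 8 of complex III, 265 over the 13 of complex IV and 227 over the 17 of complex V. Complex I assembly factors had a median of 10.6 per kb, and all genes tested 5.11. Lengths are those of the longest principal transcript in GENCODE, and levels per length depend on that choice. It was long for Atp5g1 (4715 bases, 9.13 per kb), Ndufb2 (4371 bases, 8.81 per kb) and Sdhc (3171 bases, 31.1 per kb). Whether the ulcers held transcripts of these lengths was not tested. The highest levels per length in each complex were those of Ndufa7 (181), Sdhb (113), Uqcrh (323), Cox6a1 (400) and Atp5b (395). Within the F1 head of ATP synthase, the β subunit gene Atp5b and the α subunit gene Atp5a1 encode proteins that occur in equal number. The Atp5b level per kb was 1.30 to 1.43 times that of Atp5a1 in the saline libraries and 1.22 to 1.34 times in the ointment libraries. These ratios depend on the lengths used, 1916 bases for Atp5b and 2471 bases for Atp5a1. Without division by length, Atp5b and Atp5a1 were 807 and 770 CPM in saline and 705 and 725 CPM in ointment ulcers.

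**Figure D2:**
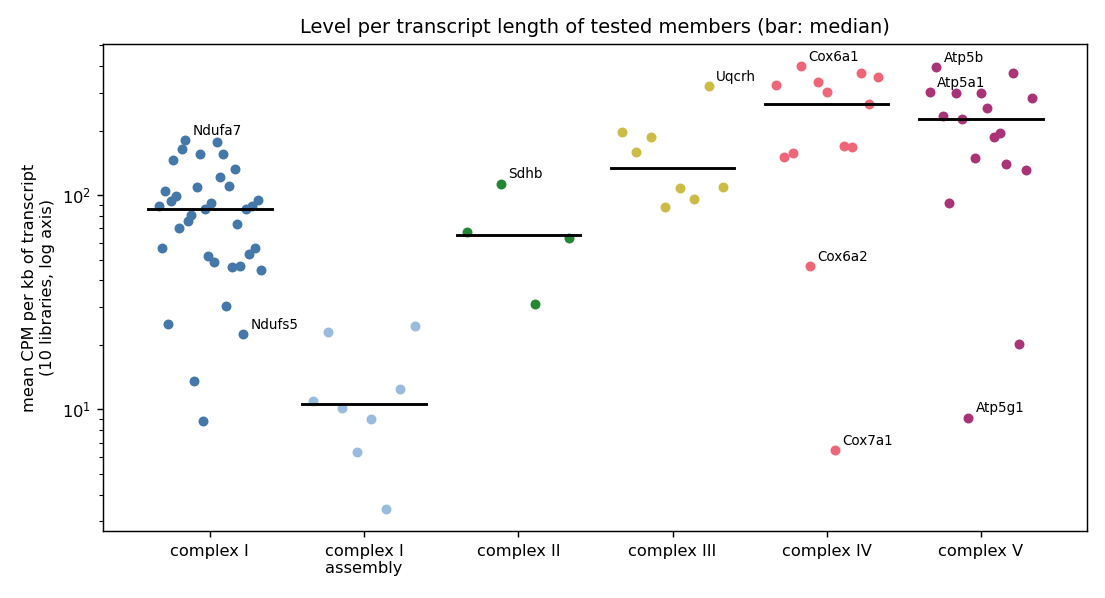
Mean level over 10 libraries in CPM per kb of transcript (y axis, log scale) for the 86 tested genes by complex. Values depend on the transcript length used, that of the longest principal transcript. Each point is 1 gene and each bar the median, which was highest for complex IV (265) and lowest for the complex I assembly factors (10.6).

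Complex I, NADH dehydrogenase, is built from core subunits that carry the flavin and iron-sulfur centres and from accessory subunits around them. None of its 36 genes passed edgeR's test: 21 had a log2 fold change above 0 and 15 below, with a median of 0.05. The 7 core genes lay between -0.11 and 0.12, and all 7 intervals were within 1.5-fold. Ndufs1, the large iron-sulfur subunit, was 125 ± 5.92 CPM in saline and 120 ± 11.5 CPM in ointment ulcers (log2 difference -0.06, SE 0.09). Ndufv1, which binds NADH and the flavin, was 98.1 ± 5.8 and 90.9 ± 6.48 CPM (-0.11, SE 0.09).

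Ndufa7, an accessory subunit gene at chr17:33824572-33838317 (GRCm38), was the only complex I gene whose groups did not overlap. Its levels were 70.4, 90.5, 88.5, 85.1 and 90 CPM in saline libraries 1 to 5. They were 92.8, 109, 109, 101 and 117 CPM in ointment libraries 1 to 5. Every ointment library was above every saline library. The 1.25-fold difference in means (84.9 ± 8.36 against 106 ± 9.24 CPM, log2 difference 0.32, SE 0.10) did not pass edgeR's test (adjusted p = 0.15) and passed DESeq2's (adjusted p = 0.0328).

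Ndufs5, an accessory subunit gene at chr4:123712710-123718202, had the smallest p of all 86 genes and 2 levels within the ointment group. Saline libraries 1 to 5 held 4.46, 6.78, 2.69, 7.83 and 9.63 CPM. The 5 ointment libraries held, in order, 35.2, 7.34, 35.2, 35.6 and 7.55 CPM. Ointment libraries 1, 3 and 4 were thus nearly equal and far above every saline library, while ointment libraries 2 and 5 lay inside the saline range. The fitted log2 fold change was 1.94 (SE 0.55, interval 0.71 to 3.18) with an adjusted p of 0.111 by edgeR and 0.00641 by DESeq2.

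Of the 8 complex I assembly factors, 0 passed edgeR's test, and 4 had log2 fold changes above 0. The 2 with the smallest p were Ndufaf4, at 20.1 ± 4.65 CPM in saline and 26 ± 7.07 CPM in ointment ulcers (log2 difference 0.37, SE 0.24, edgeR adjusted p = 0.495), and Ndufaf6. The latter was 3.36 ± 0.755 and 4.03 ± 0.336 CPM (0.26, SE 0.20). Of the 8 intervals, 4 reached beyond 1.5-fold, so for those a difference of that size lay within the error.

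Complex II, succinate dehydrogenase, also belongs to the citric acid cycle and has no subunit encoded in mitochondrial DNA. Its iron-sulfur subunit gene Sdhb, at chr4:140961203-140979193, had levels of 104, 115, 124, 118 and 130 CPM in saline libraries 1 to 5. Ointment libraries 1 to 5 had 133, 138, 135, 138 and 151 CPM. The groups did not overlap, and the 1.18-fold difference (118 ± 10.1 against 139 ± 6.82 CPM, log2 difference 0.23, SE 0.09) had an adjusted p of 0.215 by edgeR and 0.044 by DESeq2. The flavoprotein gene Sdha, whose protein binds Sdhb in the same complex, was 208 ± 29.8 CPM in saline and 183 ± 36.5 CPM in ointment ulcers (-0.18, SE 0.16). The membrane anchor gene Sdhc was 93.5 ± 15.2 and 104 ± 6.4 CPM (0.15, SE 0.13).

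The other membrane anchor, Sdhd (chr9:50596357-50603812), again took 2 levels. Saline libraries 1 to 5 held 34.2, 38.9, 35.2, 42.6 and 160 CPM. In ointment libraries 1 to 5 the levels were 149, 47.1, 181, 35.6 and 51.3 CPM. Saline library 5 and ointment libraries 1 and 3 were between 149 and 181 CPM, and the other 7 were between 34.2 and 51.3 CPM. The log2 fold change of 0.58 (SE 0.60, edgeR adjusted p = 0.71) became 1.30 without saline library 5 and 0.19 without ointment library 3. Sdhd and Uqcr10, below, were chosen after their values were seen.

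**Figure D3:**
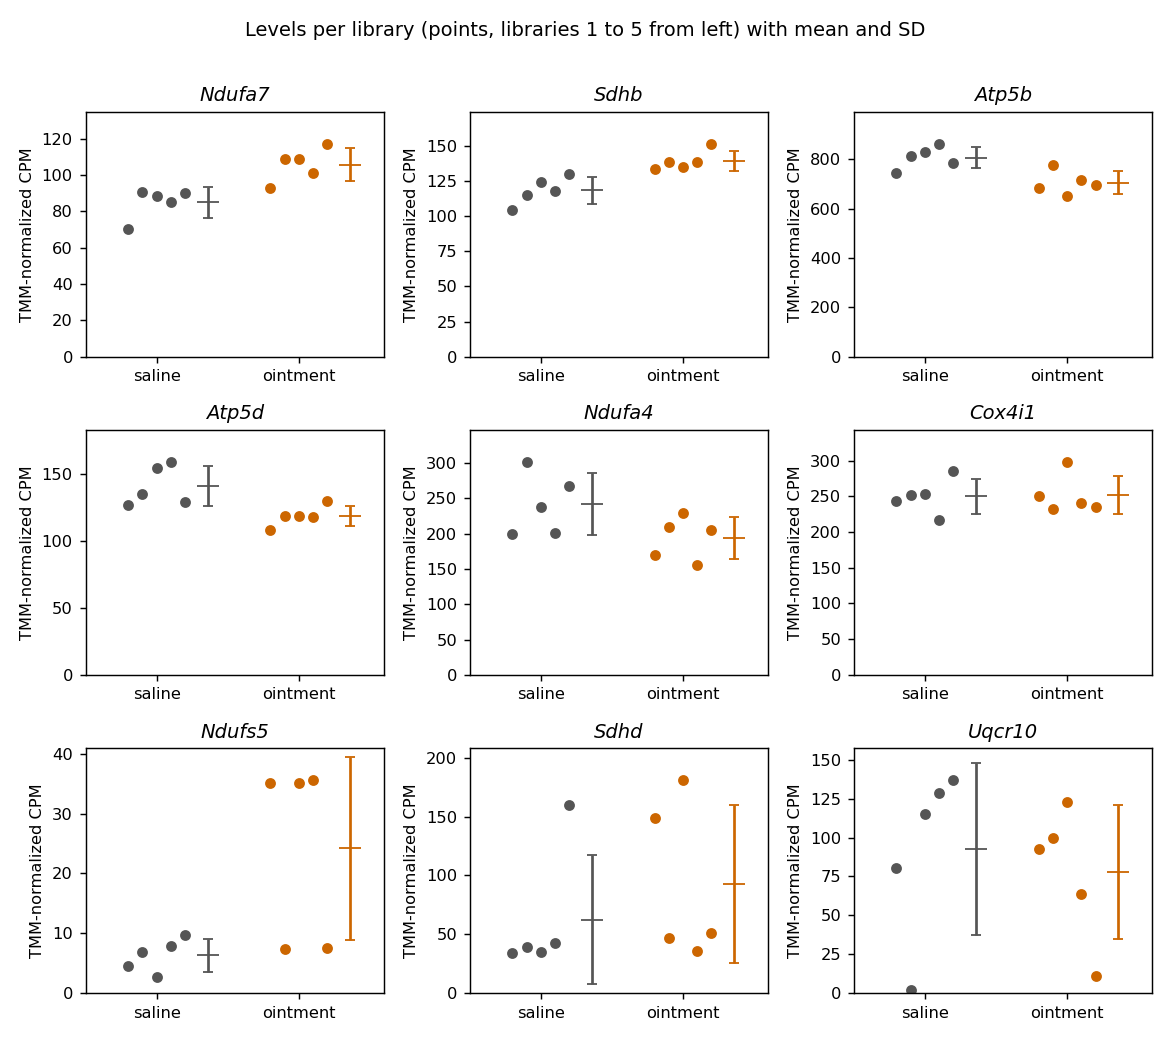
TMM-scaled CPM (y axis, from 0) of 9 genes in the 5 saline and 5 ointment libraries. Points are libraries 1 to 5 from left to right, and the bars beside them are the mean and SD. Ndufa7 and Sdhb do not overlap between groups, the groups overlap for Cox4i1, and Ndufs5, Sdhd and Uqcr10 take separate levels within a group.

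Complex III, the cytochrome bc1 complex, hands electrons to cytochrome c. None of its 8 genes passed edgeR's test, with log2 fold changes from -0.28 to 0.05. The 3 core genes on the list had intervals within 1.5-fold. Uqcrc1 was 152 ± 8.28 CPM in saline and 138 ± 14.9 CPM in ointment ulcers (log2 difference -0.14, SE 0.10). The Rieske iron-sulfur protein gene Uqcrfs1 was 130 ± 4.81 and 132 ± 12.4 CPM (0.03, SE 0.09, a sign that changed with the scaling). The ubiquinone-binding subunit gene Uqcrb was 107 ± 19.6 and 92.8 ± 14.4 CPM (-0.20, SE 0.15), and the hinge protein gene Uqcrh was 194 ± 43.3 and 160 ± 45.7 CPM (-0.28, SE 0.23).

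Uqcr10, a small complex III subunit gene at chr11:4701973-4704342, varied more within groups than any other of the 86 genes. Saline libraries 1 to 5 held 80.7, 1.78, 115, 129 and 137 CPM. Those of the ointment group held 92.7, 100, 123, 63.9 and 10.6 CPM. Saline library 2 was 76.7-fold below the highest saline library, and ointment library 5 was 11.6-fold below the highest ointment library, while the other 8 were between 63.9 and 137 CPM. The log2 fold change of -0.24 (SE 0.86, interval -2.16 to 1.67) became -0.55 without saline library 2 and 0.04 without ointment library 5.

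Complex IV, cytochrome c oxidase, reduces oxygen to water. Its 13 genes include Ndufa4, which was first assigned to complex I and is now counted with complex IV. None passed edgeR's test, and log2 fold changes ran from -0.32 to 0.29. Cox4i1, the isoform of subunit 4 found in most tissues, was 250 ± 24.6 CPM in saline and 252 ± 26.8 CPM in ointment ulcers (log2 difference 0.01, SE 0.11, interval -0.23 to 0.25). That value lay within 1 SE of 0 and its sign changed with the scaling. Cox5a was 92.9 ± 11.2 and 100 ± 4.91 CPM (0.11, SE 0.10), and Cox5b was 145 ± 30.3 and 126 ± 10.9 CPM (-0.20, SE 0.14).

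Ndufa4 had the smallest p in complex IV. Its levels were 200, 301, 237, 201 and 268 CPM in saline libraries 1 to 5 and 169, 209, 229, 156 and 205 CPM in ointment libraries 1 to 5. The groups overlapped, and the log2 fold change of -0.32 (SE 0.15) had an adjusted p of 0.33 by edgeR. Ndufa4l2, a related gene induced by low oxygen in many cells and not a member of the set, was 77 ± 34.7 CPM in saline and 56.8 ± 19.2 CPM in ointment ulcers (-0.44, SE 0.30). Saline library 1 held 138 CPM and the other saline libraries 53.5 to 71.6 CPM, and without it the log2 fold change was -0.13. Ndufa4l2 made up 31% of the pair per kb in saline library 1, 10.4% to 17.3% in the other saline libraries and 11.1% to 20% with ointment.

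The muscle isoforms of complex IV were high in the libraries with the most muscle marker RNA, in both groups. Cox6a2, the striated muscle form of subunit 6a, was 26.7, 19.3, 47.9, 22.5 and 38.9 CPM in saline libraries 1 to 5. Ointment libraries 1 to 5 held 25, 23.5, 26.3, 67.1 and 19.4 CPM. Ointment library 4 and saline libraries 3 and 5 were the highest, and the same 3 libraries had the highest sums of 15 muscle markers (9211, 6638 and 5738 CPM, against 1850 to 4321 CPM in the rest). Across the 10 libraries, Cox6a2 and the muscle sum had a Pearson r of 0.98 (Spearman rho 0.93), and r was 0.93 without the 2 libraries farthest from the median. Both are scaled by the same library totals.

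Cox7a1, the muscle form of subunit 7a, was 2.59 ± 0.986 CPM in saline and 2.47 ± 0.916 CPM in ointment ulcers, with r = 0.89 to the muscle sum (rho 0.73; 0.77 without those 2 libraries). For the forms found in most tissues, r was 0.29 for Cox6a1 and -0.64 for Cox7a2. Cox6a2 made up 6.1% to 19.4% of subunit 6a transcript per kb, and Cox7a1 made up 1.96% to 8.1% of subunit 7a transcript, both highest in ointment library 4. The fold changes of Cox6a2 (0.05, SE 0.38) and Cox7a1 (-0.07, SE 0.34) were far smaller than their errors. Cox8b, the muscle and brown fat form of subunit 8 and outside the set, was 3.38 to 9.61 CPM in all saline libraries and 3.45 to 3.51 CPM in ointment libraries 1, 2 and 5. It was listed at 0 in ointment library 3 and was 0.0537 CPM in ointment library 4, which had the most muscle marker RNA.

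**Figure D4:**
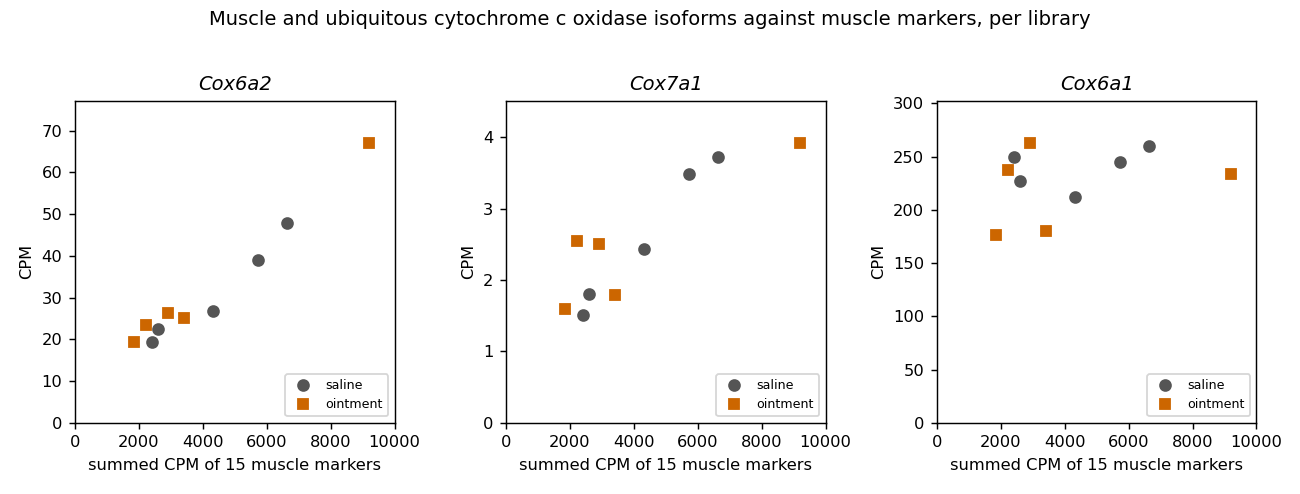
CPM of Cox6a2, Cox7a1 and Cox6a1 (y axes) against the summed CPM of 15 muscle markers (x axis), 1 point per library, circles saline and squares ointment. Cox6a2 and Cox7a1 climb with the muscle sum (r = 0.98 and 0.89, n = 10), and r is 0.29 for Cox6a1.

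Complex V, ATP synthase, had 11 of 17 log2 fold changes below 0, with a median of -0.07 against -0.00 over all genes. None passed edgeR's test. In the F1 head, which makes ATP, 4 of 5 genes were below 0. Atp5b (chr10:128083273-128090391), the catalytic β subunit, was 746, 814, 830, 862 and 785 CPM in saline libraries 1 to 5 and 686, 777, 652, 716 and 695 CPM in ointment libraries 1 to 5. Only ointment library 2 lay inside the saline range. The log2 fold change was -0.20 (SE 0.08, edgeR adjusted p = 0.273).

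Atp5d (chr10:80138632-80145818), which encodes the δ subunit of the central stalk, was 127, 135, 155, 159 and 129 CPM in saline libraries 1 to 5. Ointment libraries 1 to 5 held 108, 119, 119, 118 and 130 CPM, so that only ointment library 5 reached the saline range. Its log2 fold change was -0.25 (SE 0.10, edgeR adjusted p = 0.238). Atp5a1, the α subunit, was 770 ± 36.9 and 725 ± 26.1 CPM (-0.09, SE 0.08). The 3 genes Atp5g1, Atp5g2 and Atp5g3 encode the same mature subunit c of the rotating ring, and their log2 fold changes were 0.04, -0.16 and -0.02. The 4 tested peripheral stalk genes (Atp5f1, Atp5h, Atp5j and Atp5o) lay between -0.09 and 0.10.

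Atp5mpl (chr12:111961375-111966977), a small membrane subunit, was the gene whose call depended on 1 library. It was chosen after this result was seen. Saline libraries 1 to 5 held 79.2, 85.8, 100, 98.2 and 92.1 CPM. Ointment libraries 1 to 5 held 55, 62.7, 60.9, 55.2 and 113 CPM. Ointment libraries 1 to 4 were below every saline library, and ointment library 5 was above all of them. With all libraries the log2 fold change was -0.40 (SE 0.20, edgeR adjusted p = 0.363), and without ointment library 5 it was -0.64 (adjusted p = 0.0403), where 0.353% of all genes tested were called lower.

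Ndufs5, Sdhd and Uqcr10 belong to 10 of the 86 genes (11.6%, against 51.9% of all genes tested) whose highest library exceeded the lowest of the same group by more than 2.5-fold, a limit set after the values were seen. The others were Cox6a2, Uqcrq, Cox8a, Ndufa1, Ndufb4, Ndufaf8 and Ndufaf2. The remaining 76 genes had log2 fold changes from -0.40 to 0.37, 75 of them within 1.3-fold by estimate (the exception was Atp5mpl). The libraries at the high level were the same only in part: ointment libraries 1, 3 and 4 for Ndufs5, and saline library 5 with ointment libraries 1 and 3 for Sdhd. Ointment libraries 1 and 3 were thus high for both genes, and ointment libraries 2 and 5 low for both. For Uqcr10, ointment library 5 was low (10.6 CPM) and ointment library 2 was not (100 CPM). Whether these levels have a common source was not tested.

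Reads that fit more than 1 gene can be assigned in different ways, so the members were compared with other annotated transcripts. Among the 86 genes, 20 shared at least 20% of their 31-base stretches with another annotated gene, and 2 of the 10 wide-ranging genes did (Ndufs5 and Ndufb4). The copy of Ndufs5, the processed pseudogene BC002163, shared 36% of the stretches and was at 0 CPM in all 10 libraries, as was the copy of Ndufb4. For 6 of the 86 genes, none of them wide-ranging, a sharing gene had a mean of at least 1 CPM. Some of those copies were on in a few libraries only. Gm15920, which shared 29.3% with Ndufa12, was 24 CPM in saline library 5 and 0 in the other 9. Gm10175, which shared 87.7% with Atp5g2, was 14.8 CPM in saline library 5, 10.4 CPM in ointment library 3 and 0 elsewhere. Gm2962, a copy of Uqcrb, was 8.76 to 17 CPM in 4 libraries and 0 in 6. How reads were counted is not known, so a listed 0 at a copy does not show where shared reads were assigned. The levels of the 20 sharing genes, among them Ndufa12, Atp5g2, Uqcrb, Ndufs5 and Ndufb4, are therefore uncertain by an amount that was not measured.

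**Figure D5:**
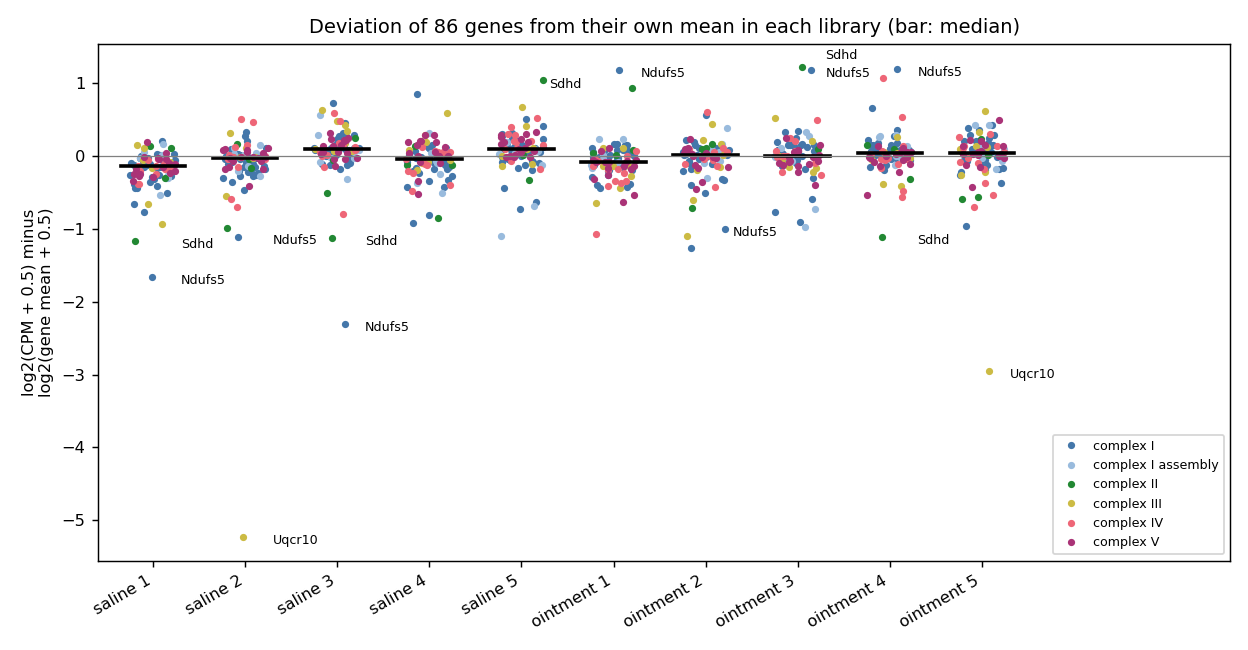
Deviation of each of the 86 genes from its own mean over 10 libraries (y axis, log2 of CPM + 0.5), by library, coloured by complex, with a bar at the median. The medians run from -0.14 in saline library 1 to 0.09, and the labelled points of Ndufs5, Sdhd and Uqcr10 stand apart.

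The 13 subunits encoded in mitochondrial DNA could not be compared. None passed the count filter, which asks for counts in enough libraries. Of the 13, 7 were at 0 in every library and 8 at 0 or 1. mt-Cytb was listed at 0 in 6 libraries and held 390595 counts in saline library 3 and 230989, 314385 and 259679 counts in ointment libraries 1, 3 and 5. mt-Nd2, mt-Nd4, mt-Nd6 and mt-Co1 held 1634, 480, 2137 and 502 counts in ointment library 1 and at most 1 elsewhere. These transcripts are abundant in every tissue with mitochondria, so a listed 0 is no measured absence, and the ratio of nuclear to mitochondrial subunits was not computed.

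Genes of the same complex varied together to different degrees. After the group means were removed, the median Pearson r between pairs of the 86 genes was 0.22 over 10 libraries, with 69.4% of pairs above 0. It was 0.42 within complex V, 0.29 within complex IV, 0.24 within complex I, 0.07 within complex III, -0.17 among the 4 complex II genes and -0.01 among the assembly factors. Cytosolic ribosomal protein genes had 0.43, mitochondrial ribosomal protein genes 0.08, and all genes with a mean of at least 5 CPM -0.00. All pairs share the same 10 libraries and their scaling, so these values describe the libraries.

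Promoters of the set were searched for motifs of factors known to drive respiratory chain genes. RefSeq (GRCm38.p6) start sites were found for 72 of the 89 symbols, giving 77 windows of the 250 bases before the start. The core of the NRF1 motif, GCATGCG on either strand, was in 10 windows (13%), against 3.01% of all RefSeq windows and 4.46% of those of tested genes. CCGGAAG, bound by the ETS factor GABP, was in 14 windows (18.2%), against 6.9% and 11.1%. AAGGTCA, bound by ERR receptors, was in 5 windows (6.49%, against 4.08% and 3.26%), and AAGATGG, bound by YY1, was in 1 (1.3%, against 4.49% and 4.13%). The NRF1 letters can overlap themselves on the other strand, as CGCATGCG.

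The windows of 3 genes are printed 5′ to 3′ on the gene's strand, with the motif letters in capitals. Each ends before the first base that GENCODE places in that same gene. Overlap of the windows with transcripts of other genes was not checked. Cox6a1 (chr5:115348982-115349208, minus strand) has the highest level per length of the 86 genes, and the GABP letters counted in its window reach into the 23 bases that are not printed. Atp5l (chr9:44920743-44920992, minus strand) holds the NRF1 core, GABP and ERR letters. Ndufa7 (chr17:33824322-33824571, plus strand) holds none of the 4 motifs letter for letter, and near matches were not searched.
Cox6a1: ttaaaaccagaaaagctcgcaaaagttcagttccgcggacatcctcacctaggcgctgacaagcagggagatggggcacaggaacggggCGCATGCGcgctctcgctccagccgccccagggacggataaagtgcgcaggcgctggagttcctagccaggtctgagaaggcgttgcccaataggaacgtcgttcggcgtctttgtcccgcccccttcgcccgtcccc
Atp5l: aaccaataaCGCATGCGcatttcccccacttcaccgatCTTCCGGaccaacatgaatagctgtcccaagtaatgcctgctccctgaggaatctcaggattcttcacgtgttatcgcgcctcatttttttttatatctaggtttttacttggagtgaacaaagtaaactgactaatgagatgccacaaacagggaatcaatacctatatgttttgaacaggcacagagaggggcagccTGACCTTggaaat
Ndufa7: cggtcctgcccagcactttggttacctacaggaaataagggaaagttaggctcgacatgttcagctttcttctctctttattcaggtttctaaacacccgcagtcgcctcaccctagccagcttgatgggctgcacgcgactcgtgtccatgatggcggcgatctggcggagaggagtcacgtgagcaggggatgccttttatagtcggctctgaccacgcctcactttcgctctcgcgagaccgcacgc
Ndufa7, whose window holds none of these letters, and Sdhb, whose window holds the NRF1 core, were the 2 whose groups did not overlap. Most of the searched windows also held none of these letters. Whether the motifs bear on the fold changes was not tested. The log2 fold change of Cox6a1 was -0.13 (SE 0.13) and that of Atp5l 0.00 (SE 0.13). A match describes the sequence and does not show that a factor was bound.

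Lists of other mitochondrial and metabolic genes were read from the same fit, and edgeR called 0 genes in each of the 8 lists with tested genes. At an unadjusted p below 0.05 there were 4 assembly factors (10.3% of those tested), 4 mitochondrial (5.13%) and 2 cytosolic (2.38%) ribosomal protein genes and 2 regulators (9.52%). There were also 2 glycolysis genes (12.5%), 1 citric acid cycle gene (5.26%) and 1 import gene (4.76%). Each share was below the 17.1% of all genes tested. DESeq2, which called 9.09% of all genes tested, called Coa7 and Rpl21 higher and Acad9, Mterf4, Mrps27 and Mrpl24 lower. Among 8 tested genes of the chain outside the naming rule the median log2 fold change was -0.26, and Cyc1, the cytochrome c1 subunit of complex III, was 101 ± 11.4 CPM in saline and 86.5 ± 7.28 CPM in ointment ulcers (-0.23, SE 0.11). Cox4i2, another isoform of subunit 4, was 5.7 ± 1.45 and 3.39 ± 1.37 CPM (-0.75, SE 0.37, edgeR adjusted p = 0.335). The 39 assembly factors outside the rule had a median of -0.01. Coa7, a complex IV assembly factor, was 4.25 ± 0.905 CPM in saline and 11.1 ± 3.76 CPM in ointment ulcers (1.38, SE 0.29, edgeR adjusted p = 0.0505 and 0.000314 by DESeq2). Acad9, which helps assemble complex I, was 129 ± 28 and 78.8 ± 11.1 CPM (-0.71, SE 0.16, edgeR adjusted p = 0.0604 and 0.00331 by DESeq2).

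The 19 citric acid cycle and pyruvate dehydrogenase genes had a median log2 fold change of -0.02, with Idh3a at -0.37 (SE 0.14) and Pdhx at 0.25 (SE 0.12). The 21 regulators of mitochondrial DNA expression and biogenesis had a median of -0.07. Mterf4, which acts in mitochondrial ribosome assembly, was 19.9 ± 6.46 CPM in saline and 11.3 ± 0.822 CPM in ointment ulcers (-0.82, SE 0.21, edgeR adjusted p = 0.0809), and Polrmt, the mitochondrial RNA polymerase, had -0.26 (SE 0.11). The 21 membrane and import genes had a median of 0.04, with the import receptor gene Tomm70a at 0.49 (SE 0.20) and the chaperone gene Hspa9 at 0.32 (SE 0.18).

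Medians were 0.02 for 78 mitochondrial ribosomal protein genes, with Mrps27 at -0.34 (SE 0.09) and Mrpl24 at -0.29 (SE 0.09), and -0.02 for 84 cytosolic ribosomal protein genes. Of the latter, Rpl26 was at -0.31 (SE 0.11), and Rpl21 was at most 5.05 CPM in 8 libraries and 85.2 and 158 CPM in ointment libraries 4 and 5. The 15 glycolysis genes (16 tested IDs) had a median of 0.38, with 13 above 0 and 0 called. Pkm, pyruvate kinase, was 1694 ± 349 CPM in saline and 2529 ± 948 CPM in ointment ulcers (0.58, SE 0.25, edgeR adjusted p = 0.276), and Gpi1 was 325 ± 25.2 and 419 ± 104 CPM (0.36, SE 0.16). The summed glycolysis level was 6217 to 8427 CPM in saline and 6787 to 14836 CPM in ointment ulcers. It was highest in ointment library 5, which also had the highest sum of neutrophil markers (7824 CPM). Whether these sums are related was not tested.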

How the data were processed

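Ulcer tissue RNA was sequenced in 5 saline and 5 ointment libraries, which, per the labels' protocols, were made from total RNA with an mRNA library kit (SMARTer). The authors deposited whole, unscaled values for each gene, which were handled as estimated counts. Multiples of 4 are more frequent than their neighbours among low values, so the values were not taken as reads. The design had assumed raw counts, and the test was kept. Per the submitters' processing notes, reads were placed on GRCm38 (mm10). The aligner and counter were not given in the sources used here. No source says that strand was kept, and reads from overlapping antisense genes cannot be told apart; 40 of the 86 tested genes overlap another annotated gene.

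All 55421 entries were scaled by TMM and fitted with edgeR 4.0.16 (R 4.3.3; robust quasi-likelihood F-test, group as the only term). filterByExpr (minimum count 10, minimum total 15) left 18509 genes, and two-sided p-values were adjusted over these genes (Benjamini-Hochberg). The fitting script was tested on simulated data. Intervals are 95% intervals of the log2 fold change with the fit's degrees of freedom. DESeq2 1.42.0, limma 3.58.1 voom, other scalings and filters, values divided by 4, a replicate block and each library left out were alternatives, and a fit with 4 libraries per group (without saline library 1 and ointment library 5) was added after the data were seen. Lengths are the longest principal transcript in GENCODE release 21, which held 55240 of the IDs.

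Sharing of sequence was counted as 31-base stretches of that transcript, on either strand, found in transcripts of other genes. Named genes were those called, the 2 with the smallest p and the highest per length in each complex, fixed core and isoform genes, and the 2 with the smallest p in each list. The members, gene lists and limits were chosen with earlier results of these data known. Nothing states that libraries came from separate animals, so the spread behind each p-value is that of these samples and may be technical.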

Additional observations from a re-analysis of the deposited data

Results flagged for a closer look

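In groups of 5 libraries, a library was singled out where its gap to the nearest other library, divided by the whole range of the group, exceeded Dixon's 95% limit. Of 64 groups (32 genes, saline and ointment), 10 held such a library. Atp5mpl was not among the 32 genes, although its ointment library 5 (113 CPM) stood apart from the rest of its group (55 to 62.7 CPM). Chance gives about 1 in 20 for genes picked without regard to their values, but 7 of the 32 were added for their wide range within a group, and the rest were the named genes, so the count is not compared with it. Cox6a2 was 67.1 CPM in ointment library 4, where the rest of its group had 19.4 to 26.3 CPM. Sdhd was 160 CPM in saline library 5, where the rest had 34.2 to 42.6 CPM. Ndufa1 was 62.1 CPM in saline library 3, against 23.6 to 29.1 CPM.

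Ndufa7 was 70.4 CPM in saline library 1, against 85.1 to 90.5 CPM, and Ndufaf4 was 13.7 CPM in ointment library 3, against 27.1 to 31.1 CPM. In complex II, Sdhb was 151 CPM in ointment library 5, against 133 to 138 CPM, and Sdha was 156 CPM in saline library 5, against 215 to 233 CPM. Uqcrc1 was 137 CPM in saline library 4, against 155 to 157 CPM. Ndufs1 was 100 CPM in ointment library 1, against 121 to 128 CPM, and Cox4i1 was 298 CPM in ointment library 3, against 233 to 251 CPM.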

How the results depend on the processing

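The count of respiratory chain genes called was 0 in each direction by edgeR with all libraries, and it changed under 3 of the 21 alternatives: DESeq2 called 3 higher, and 1 (Atp5mpl) was called lower without ointment library 5 and with 4 libraries per group. Leaving out 1 library gave 0 to 1 called lower. The median log2 fold change of the 86 genes stayed between -0.06 and 0.02 over all alternatives. Of 899 values of 43 named genes, 859 kept their direction and side of the threshold, 17 passed it and 23 changed sign. The sign changes fell on 4 genes that were within 1 SE of 0. Uqcrfs1 was -0.00 with upper-quartile scaling, -0.03 with total counts alone, -0.00 with 4 libraries per group and -0.02 to 0.07 leaving out 1 library. Cox4i1 was -0.02, -0.05 and -0.01 with upper-quartile scaling, total counts alone and a mean of at least 5 CPM, and -0.06 to 0.06 leaving out 1 library. Cox6a2 was -0.01 with limma voom, -0.04 with the replicate block and -0.39 to 0.26 leaving out 1 library, lowest without ointment library 4. Cox7a1 was 0.00 with limma voom, 0.03 with 4 libraries per group and -0.29 to 0.09 leaving out 1 library. The cause of these changes was not tested.

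Over all genes, edgeR called 310, against 1682 by DESeq2 (873 higher, 809 lower), 102 to 422 leaving out 1 library and 59 with 4 libraries per group. With the replicate number as a block it called 0 of all genes and 0 of the 86, with a smallest adjusted p of 0.24 among them and 3 of them at an unadjusted p below 0.05. Same-numbered libraries did not deviate together (r from -0.0772 to 0.0562), so the numbers were not taken to pair the samples. Of the 86 intervals, 18 reached beyond 1.5-fold, and 10 of these belonged to the 10 genes with an over 2.5-fold range within a group. A wide range within a group by itself widens the interval, so the latter count follows from how those genes were picked.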

Other observations

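A few genes of the chain outside the naming rule were chosen here after their values were seen. Ndufb1-ps, which the rule leaves out by its name, had the level of a complex I subunit gene, 43.3 ± 5.09 CPM in saline and 44 ± 1.23 CPM in ointment ulcers (log2 difference 0.02, SE 0.10). Cycs, the gene of somatic cytochrome c, was 155 ± 23.7 and 157 ± 23.6 CPM (0.02, SE 0.14). Cox7a2l, whose protein joins complexes III and IV in supercomplexes, took 2 levels like Sdhd. It was 53.8 CPM in saline library 2 and 57.5 and 58.8 CPM in ointment libraries 2 and 5, and 167 to 211 CPM in the other 7. Ppargc1a, a coactivator that drives mitochondrial biogenesis, was 3.61 ± 0.889 CPM in saline and 2.31 ± 1.39 CPM in ointment ulcers (-0.64, SE 0.40, adjusted p = 0.478 by edgeR).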
